A study of Mus musculus with 8 samples.

Results

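Nuclear receptor genes were followed in LSK cells of Asxl2 knockout and wild-type mice. The set is a list of 40 genes taken by symbol, because Asxl proteins are known cofactors of nuclear receptors. The list uses no measured value, but it was chosen with earlier results of these data known. All 40 were found among the 47311 mouse genes to which the deposited transcripts were assigned, and 39 of them passed the filter on low counts that left 25543 genes for testing. Hnf4g did not pass. LSK cells are bone marrow cells sorted as lineage-negative, Sca1-positive and Kit-positive, a mixture of hematopoietic stem cells and early progenitors.

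The study sequenced polyA RNA from 8 LSK samples, 2 in each of 4 groups: young Asxl2 WT, young Asxl2 KO, old Asxl2 WT and old Asxl2 KO. The young groups were aged 8 to 12 weeks and the old groups over 1 year. No treatment or further allele is named in the labels, and the kind of knockout allele and the strain are not given in the sources used here. The samples form 4 litters, in each of which a KO mouse has a WT littermate, split over 2 batches labelled with different years, so that each group has 1 mouse in each batch.

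Nuclear receptors are transcription factors, most of which are switched by small fat-soluble ligands such as steroids, retinoids, thyroid hormone, vitamin D, oxysterols and fatty acids, while the orphan members have no established hormone. Without ligand many of them hold corepressor complexes at their target genes, and with ligand they exchange these for coactivators. Several, among them the receptors for retinoic acid, vitamin D, thyroid hormone, oxysterols and fatty acids, bind DNA as a pair with a retinoid X receptor. In blood formation the family is known for the effect of retinoic acid on stem cell dormancy and myeloid differentiation, for glucocorticoid control of lymphoid and stress erythroid cells, and for the Nr4a genes as brakes on proliferation.

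Each library held 45737972 to 80388500 estimated counts and 26237 to 36175 detected genes. Asxl2 itself lay between 23.0 and 30.8 TPM, a level scaled to transcript length and library total, in the 4 WT libraries and between 4.63 and 5.63 TPM in the 4 KO libraries, with no overlap. The 10 LSK markers, all above 1 TPM in at least 1 library, summed to 1618 to 3548 TPM. Markers of other cells differed between libraries. The summed level of 9 erythroid markers was 823 to 1154 TPM in the young WT, 266 to 502 in the young KO, 109.7 to 645 in the old WT and 53.5 to 89.2 in the old KO libraries. Summed mast cell, basophil and eosinophil markers ran from 77.1 TPM in old WT mouse 1 to 2024 TPM in young WT mouse 2, and mature neutrophil markers from 11.0 to 1482 TPM. Summed markers of B cells (77.5 to 101 TPM), T and NK cells (74.8 to 138 TPM), macrophages (60.3 to 178 TPM), megakaryocytes (281 to 762 TPM) and marrow stroma (34.8 to 81.9 TPM) varied less. All 4 KO libraries, at 281 to 429 TPM of megakaryocyte markers, nonetheless lay below all 4 WT libraries, at 471 to 762. Most single megakaryocyte markers did not share the order of this sum. Only 3 of the 8 had a lower fitted level in KO, with a median log2 fold change of 0.45. Stroma markers were 34.8 to 39.7 TPM in young KO against 56.6 to 81.9 in young WT libraries. In old mice they overlapped, at 41.1 to 51.8 in KO and 42.9 to 64.6 in WT. No marker of the 9 lists was at 0 in every library, but Pax5, Cd3e, Gp6, Adgre1, Mrc1, Marco, Cdh5, Kdr and Col3a1, which define several of these cells, stayed under 1 TPM in all 8. The old mice of the first batch, a litter of 1 KO and 1 WT, had Xist, the RNA of the inactive X chromosome, at 3.33 and 3.61 TPM against under 0.1 TPM in the other 6.

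Of the 40 receptor genes, 15 reached 10 TPM in the mean of at least 1 group, 15 more lay between 1 and 10 TPM, and 10 between 0.1 and 1 TPM. None was under 0.1 TPM in every group. The most abundant were Rxrb, the beta form of the retinoid X receptor, and Nr1h2, which encodes the oxysterol receptor LXR beta. Over the family, 7 genes changed with genotype and 8 with age when all 8 libraries were fitted together, and Hnf4a and Nr1d2 were in both lists. Hnf4a, which encodes the orphan receptor HNF4 alpha of liver, kidney and gut, moved furthest among the genes above 10 TPM: it fell both in KO against WT and in old against young mice.

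**Figure D1:**
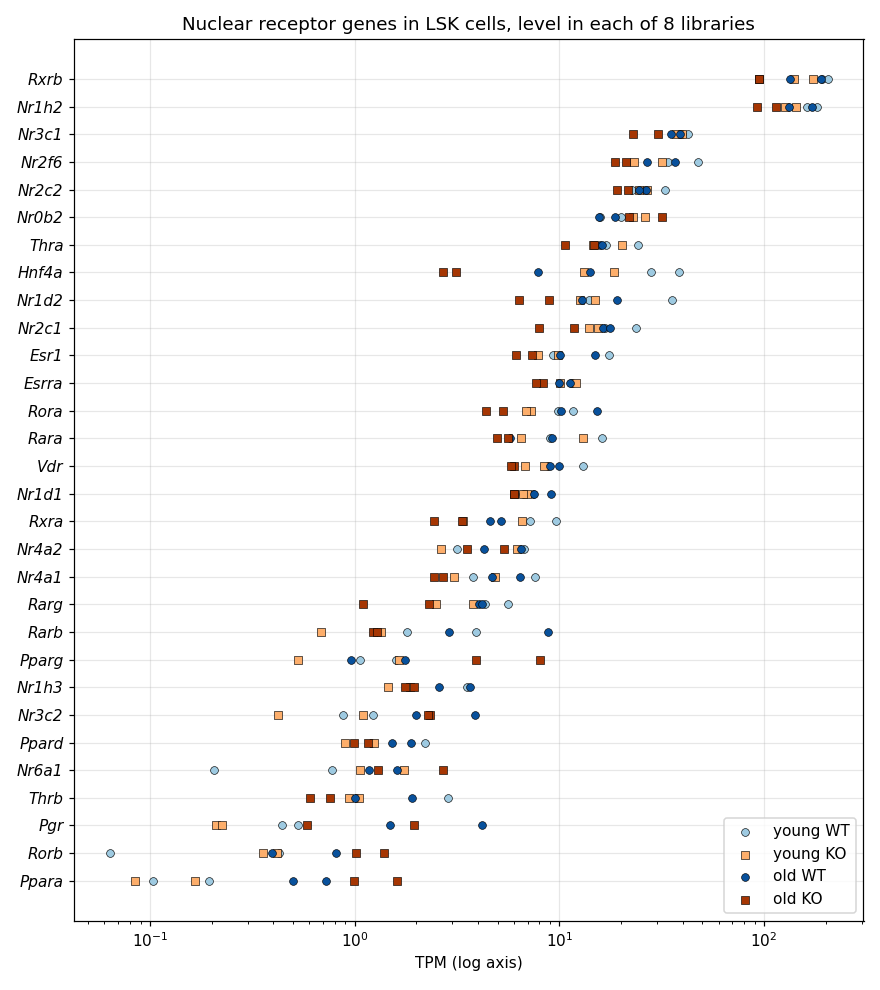
Level of the 30 nuclear receptor genes that reach 1 TPM in a group mean, in TPM on a log axis, with 1 point for each of the 8 libraries and genes ordered by mean level. Rxrb and Nr1h2 lie near 100 TPM or above, and Hnf4a is spread from 2.71 TPM in an old KO library to 38.6 TPM in a young WT library.

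For KO against WT over both ages, edgeR's quasi-likelihood test with Benjamini-Hochberg adjustment over all genes called 7 of the 39 receptor genes tested (17.9%): 1 higher (Nr0b2) and 6 lower (Hnf4a, Rarb, Rora, Nr1d2, Esr1 and Nr3c2). The same test called 9.98% of all 25543 genes, 3.19% higher and 6.78% lower. For old against young over both genotypes it called 8 receptor genes (20.5%): 2 higher (Pgr and Rorb) and 6 lower (Hnf4a, Rxrb, Nr3c1, Nr1d2, Rara and Rxra), where it called 13.9% of all genes, 4.34% higher and 9.61% lower. DESeq2, on the same counts, called 16 receptor genes for genotype (2 higher and 14 lower), where it called 21.1% of all genes (7.47% higher and 13.6% lower). For age it called 17 (8 higher and 9 lower), against 26.4% of all genes (10.8% higher and 15.6% lower). Among the 30 receptor genes at 1 TPM or more, 26 (86.7%) had a lower fitted level in KO, with a median log2 fold change of -0.44, against 55.1% and -0.07 for the 17558 tested genes at that level. For age 19 of 30 (63.3%) were lower in old mice with a median of -0.33, against 58.3% and -0.12. Over all 39 genes tested, the genotype median was -0.28, with 26 lower, against 0.10 for all genes. The age median over all 39 was 0.002, with 19 lower and 20 higher, against 0.15. The 9 tested genes under 1 TPM all had higher fitted levels in old mice, as did most tested genes under 1 TPM. Over all 25543 genes 14340 were higher in old mice, and 7320 of these were among the 17558 at 1 TPM or more.

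These calls rest on few mice. With the litter as a replicate block, which pairs each KO mouse with its WT littermate, the genotype calls were Hnf4a (edgeR adjusted p = 0.0222) and Rarb (adjusted p = 0.0418). Rora, Nr1d2, Esr1, Nr3c2 and Nr0b2 then had adjusted p values of 0.0566, 0.0599, 0.076, 0.0715 and 0.0725. These 5 were called when young KO mouse 2 or young WT mouse 2 was left out, and were not called when any other single mouse was. The number of receptor genes called for genotype ran from 0 without old WT mouse 2 to 13 without young KO mouse 2. For age it ran from 1 without young KO mouse 2 to 10 without old WT mouse 2 or young WT mouse 2. The age calls of Nr1d2, Rara, Rxra, Rorb, Rxrb and Nr3c1 were lost without old KO mouse 1, old KO mouse 2, young KO mouse 2, old WT mouse 1 or young WT mouse 1, and those of Rxrb and Nr3c1 also without young KO mouse 1. Without the litter with Xist above 3 TPM, Hnf4a alone was called, for both genotype (-1.19, adjusted p = 0.0494) and age (-2.23, adjusted p = 0.0275).

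A second scaling bears on the same counts. An offset that removes each library's trend of counts with transcript length moved the median of all genes at 1 TPM or more from -0.07 to 0.02 for KO against WT and from -0.12 to 0.04 for old against young. With it the receptor genes at 1 TPM or more had medians of -0.18 and -0.02, and the calls came down to Hnf4a and Rarb for genotype and Hnf4a and Pgr for age. Over all genes the split of calls turned from 816 higher and 1732 lower to 656 and 675 for genotype (5.21% called, 2.57% and 2.64%), and from 1109 higher and 2454 lower to 151 and 72 for age (0.873% called, 0.591% and 0.282%). Each value below is without the offset unless it is named.

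**Figure D2:**
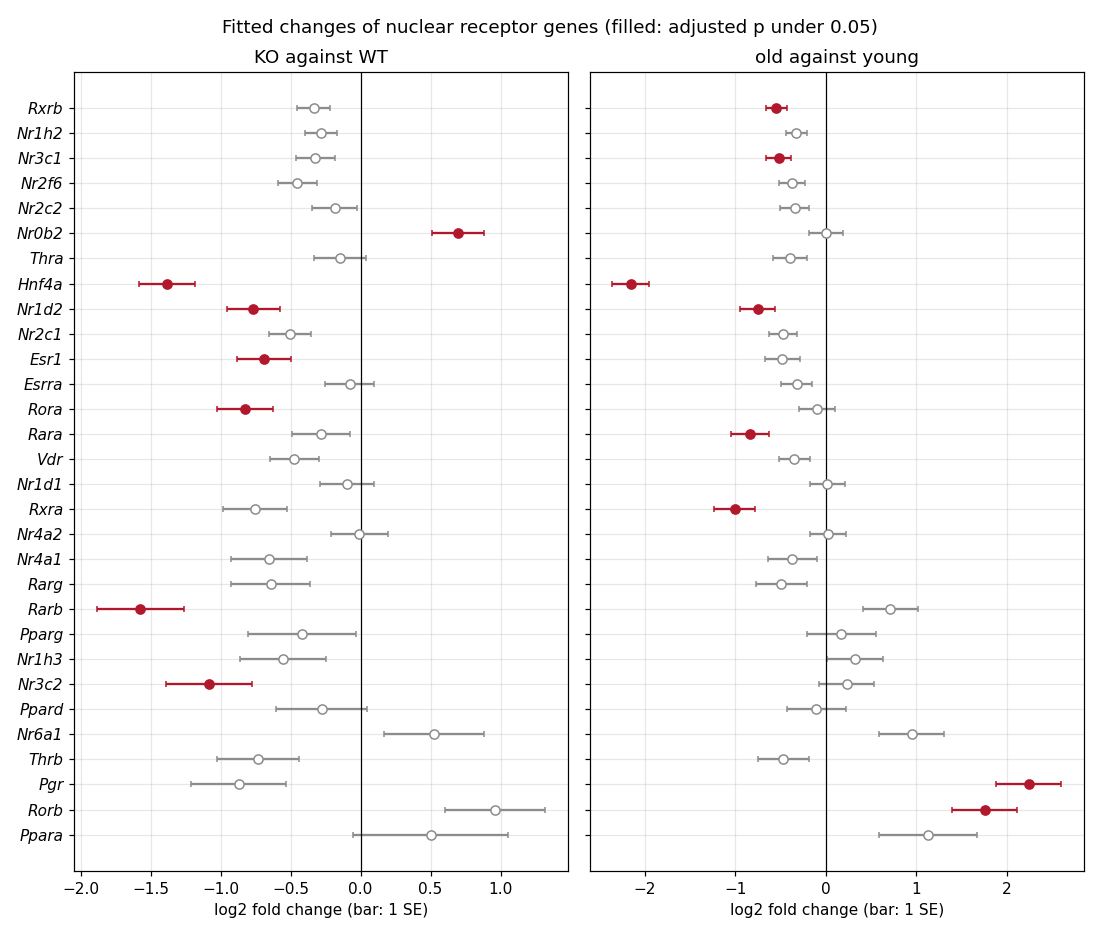
Fitted log2 fold change with 1 standard error for the same 30 genes, for KO against WT and for old against young over all 8 libraries, filled where the adjusted p is under 0.05. Hnf4a lies furthest to the left for age at -2.16, and Pgr furthest to the right at 2.24.

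Hnf4a (ENSMUSG00000017950, chr2:163506808-163572910, plus strand, GRCm38) had 38.6 and 28.2 TPM in the young WT libraries, 13.3 and 18.5 in the young KO, 14.1 and 7.91 in the old WT and 3.15 and 2.71 in the old KO libraries. Within each age both KO libraries lay below both WT libraries, and within each genotype both old libraries lay below both young ones, while the old WT and young KO libraries overlap. The fitted log2 fold change was -1.38 (SE 0.20, edgeR adjusted p = 0.0079) for KO against WT and -2.16 (SE 0.20, adjusted p = 0.00102) for old against young. It was -1.33 and -1.50 for genotype within the first and the second batch, and -2.06 and -2.23 for age. Of the single mice left out, old WT mouse 2 alone cost the genotype call (adjusted p = 0.0539), and none cost the age call. With the length offset the changes were -0.96 (adjusted p = 0.0201) and -1.69 (adjusted p = 0.00272).

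Fitted by age, Hnf4a was the only receptor gene that edgeR called in any of the 4 comparisons between single groups. It fell by 1.75 on the log2 scale in old KO against old WT mice (SE 0.26, edgeR adjusted p = 0.0192), where 0.65% of all genes were called, 0.204% higher and 0.446% lower. With the litter as a block that adjusted p was 0.0804, and it was 0.0859 and 0.151 without old WT mouse 1 and old WT mouse 2. In young mice the value was -1.02 (SE 0.25, adjusted p = 0.340). There edgeR called none of the 39 receptor genes, against 0.0626% of all genes (0.00783% higher and 0.0548% lower). An unadjusted edgeR p under 0.05 was found for 5 receptor genes and for 2416 of all 25543 genes. DESeq2 called 1 receptor gene and 1.52% of all genes. Old against young gave -1.80 in WT mice (SE 0.26, adjusted p = 0.0317) and -2.52 in KO mice (SE 0.26, adjusted p = 0.00346), and 0.0861% of all genes were called in each (0.0666% higher and 0.0196% lower in WT, 0.0626% and 0.0235% in KO). The WT call was lost without old WT mouse 1 (adjusted p = 0.239), old WT mouse 2 (0.183) or young WT mouse 1 (0.199), and the KO call without young KO mouse 2 (0.0835). The difference between the genotype effects at the 2 ages was -0.73 (SE 0.35, edgeR adjusted p = 1), so the genotype values at the 2 ages are not shown to differ. That interaction test called no receptor gene, and 0.00391% of all genes. Its unadjusted p was under 0.05 for 1 receptor gene and for 505 of all 25543 genes. DESeq2 called no receptor gene for the interaction, and 0.0392% of all genes.

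The erythroid marker sum, given above, is also lowest in the old KO and highest in the young WT libraries: 7 of its 9 genes fell in KO and 7 fell in old mice by the same edgeR test. The LSK and megakaryocyte marker sums are lowest in the old KO libraries as well. Most single genes of the megakaryocyte list do not follow its sum. Of these 8 genes, 3 had a lower fitted level in KO and 2 in old mice, with medians of 0.45 and 0.48. In each of the 2 comparisons 1 of them rose and 1 fell by the same test. The LSK sum was 2523 to 3548 TPM in the young WT and 1618 to 1716 in the old KO libraries. It was 2165 to 2271 TPM in the young KO and 2141 to 2652 in the old WT libraries. Of the 9 mast cell, basophil and eosinophil markers 5 fell in KO, and of the 10 LSK markers 2 rose and 4 fell. With age 5 of the 10 LSK markers fell and none rose (median -0.58), and 1 of the 9 mast cell, basophil and eosinophil markers rose. Within the young WT and the old KO pairs, the library with more erythroid markers also had more Hnf4a. Within the young KO and the old WT pairs it had less. Old WT mouse 1 had 109.7 TPM of erythroid markers with 14.1 TPM of Hnf4a, and old WT mouse 2 had 645 TPM with 7.91 TPM. The part of these cells in the Hnf4a result, or in those below, was not tested. In bulk RNA of this kind, fewer cells of a type and less RNA per cell cannot be told apart, here and for every gene below.

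Hnf4a is known for a pair of alternative promoters, a downstream one used in adult liver and an upstream one used in the pancreas. The transcripts Hnf4a-201 and Hnf4a-202, 2 of 5 annotated, begin at chr2:163547187-163547188 and held 97.0% of the gene's TPM. The transcript from the upstream start, 40379 bases away, held 0.0773% and had a value above 0 in 1 library only, old KO mouse 1 at 0.0976 TPM. The 250 bases before each RefSeq start (GRCm38.p6, plus strand, chr2:163506607-163506856 and chr2:163546905-163547154) are shown because nearly all of the gene's TPM in these cells came from the downstream start. Capitals mark a match, on the reverse strand, to letters of a site for the factor HNF1 (GTTAAT, then 2 bases of any kind, then TTAA), which covers bases -80 to -69 before the start.
Hnf4a upstream start: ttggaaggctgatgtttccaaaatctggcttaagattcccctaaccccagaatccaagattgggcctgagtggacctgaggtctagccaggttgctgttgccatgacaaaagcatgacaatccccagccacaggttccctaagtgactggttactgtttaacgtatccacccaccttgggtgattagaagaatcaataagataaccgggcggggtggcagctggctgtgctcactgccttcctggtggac
Hnf4a downstream start: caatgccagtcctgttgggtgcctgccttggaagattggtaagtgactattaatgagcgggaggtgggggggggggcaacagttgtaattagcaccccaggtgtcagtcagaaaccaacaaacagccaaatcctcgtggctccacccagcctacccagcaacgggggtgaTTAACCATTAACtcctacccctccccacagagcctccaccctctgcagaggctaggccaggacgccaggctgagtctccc
The match, searched on both strands, stands before the downstream start and not before the upstream one. The motif was chosen after the sequence had been seen. Of 32851 RefSeq promoters of the same length (250 bases before to 50 after the start), 46 hold it (0.14%), and of the 54 promoters found for 37 of the receptor genes only this one does.

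**Figure D3:**
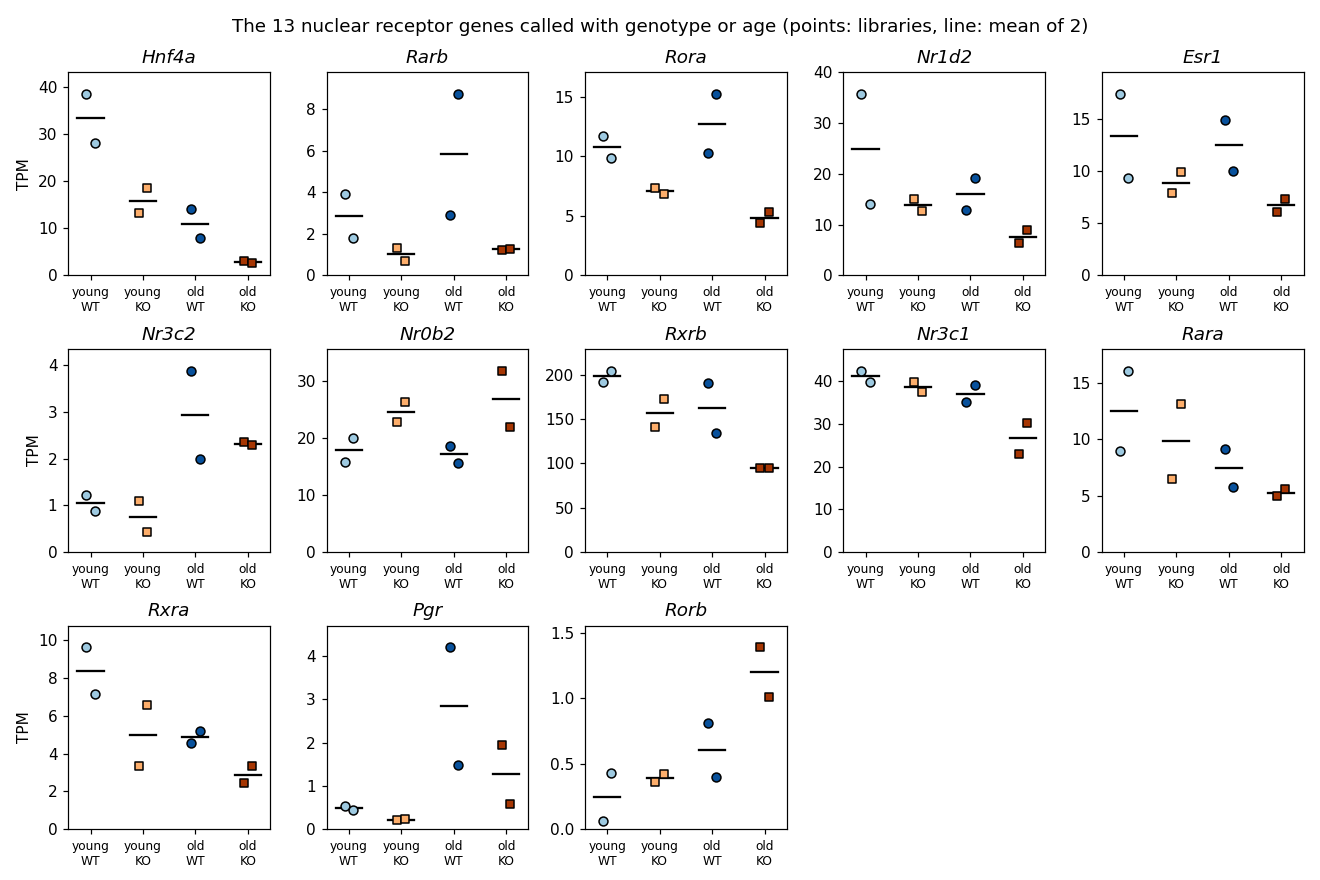
TPM of the 13 receptor genes called with genotype or age over all 8 libraries, with 1 point per library and a line at the mean of the 2 libraries of each group. The old KO libraries are lowest for Hnf4a, Rora, Nr1d2, Esr1, Rxrb, Nr3c1, Rara and Rxra, and the KO libraries are highest for Nr0b2.

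The retinoid X receptors, the shared partners of the ligand-binding pairs, were represented mainly by Rxrb (ENSMUSG00000039656, chr17:34031812-34038399). It had 192 and 205 TPM in the young WT libraries, 140.4 and 173 in the young KO, 190.4 and 134 in the old WT and 94.5 in both old KO libraries. The old KO pair is the lowest, while old WT mouse 1 lies within the range of the young libraries. Rxrb fell with age by 0.55 on the log2 scale (SE 0.12, edgeR adjusted p = 0.0239), and its genotype value was -0.34 (SE 0.12, adjusted p = 0.0813). Rxra (ENSMUSG00000015846, chr2:27676440-27762957) was far lower, at 9.64 and 7.16 TPM in young WT, 3.37 and 6.57 in young KO, 4.56 and 5.19 in old WT and 2.44 and 3.34 in old KO libraries. It fell with age by 1.01 (SE 0.23, adjusted p = 0.0264), with a genotype value of -0.76 (SE 0.23, adjusted p = 0.0574). The age values with the length offset were -0.30 (adjusted p = 0.0676) for Rxrb and -0.53 (adjusted p = 0.0901) for Rxra. Rxrg stayed between 0.0442 and 0.394 TPM in all 8 libraries.

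All 3 retinoic acid receptor genes were expressed, and they differed in which comparison they passed. Rarb (ENSMUSG00000017491, chr14:16430839-16819156, minus strand), the receptor gene that is itself a classic target of retinoic acid, had 3.93 and 1.80 TPM in young WT, 1.34 and 0.688 in young KO, 2.91 and 8.76 in old WT and 1.24 and 1.29 in old KO libraries. All 4 KO libraries, at 0.688 to 1.34 TPM, lay below all 4 WT libraries, which spread from 1.80 to 8.76 TPM. DESeq2 but not edgeR called Rarb higher with age. Its log2 fold change in KO was -1.58 (SE 0.31, edgeR adjusted p = 0.0189), with -1.12 (adjusted p = 0.386) within the first batch and -2.13 within the second. It was -1.22 (adjusted p = 0.048) with the length offset, and the adjusted p was 0.062 without old KO mouse 2 and 0.065 without old WT mouse 2. Rarb-201 carried all of the gene's TPM, and 57.7% of its exon bases also lie in exons of Top2b, the topoisomerase gene on the opposite strand, which had 31.6 to 105 TPM and a genotype value of -0.28 (adjusted p = 0.285). The SMART-Seq v4 kit does not mark strand, so reads of the shared bases cannot be told apart and the Rarb level is uncertain.

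The Rarb promoter is shown because it holds the retinoic acid response element for which the gene is known. The 250 bases before the RefSeq start (GRCm38.p6, minus strand, chr14:16575477-16575726) carry in capitals 2 copies of GTTCA that stand 6 bases apart, at bases -52 to -37.
Rarb: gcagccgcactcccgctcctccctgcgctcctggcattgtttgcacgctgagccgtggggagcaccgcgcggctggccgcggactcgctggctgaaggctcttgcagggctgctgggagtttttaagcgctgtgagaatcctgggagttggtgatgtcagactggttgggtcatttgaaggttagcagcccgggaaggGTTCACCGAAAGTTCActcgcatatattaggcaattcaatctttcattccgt
Searched on both strands, these letters stand in 25 of the 32851 promoters (0.0761%), and Rarb is the only receptor gene among them. Rarb-201 is annotated to begin 67 bases upstream of the RefSeq start, so in that model the match lies within the first exon.

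Rara (ENSMUSG00000037992, chr11:98927818-98974942), the receptor whose fusion causes acute promyelocytic leukemia, had 8.98 and 16.1 TPM in young WT, 6.49 and 13.1 in young KO, 9.17 and 5.75 in old WT and 4.95 and 5.61 in old KO libraries. The young libraries of the first batch are the high ones, and the old WT range overlaps the young values. Rara fell with age by 0.83 (SE 0.21, edgeR adjusted p = 0.0323), with -1.27 in the first batch and -0.39 in the second, and -0.51 (adjusted p = 0.11) with the length offset. Rarg was lower in all 4 KO libraries (1.10 to 3.77 TPM) than in all 4 WT libraries (4.04 to 5.59 TPM), but its genotype value of -0.64 (SE 0.28, adjusted p = 0.156) missed the threshold.

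Among the lipid sensors Nr1h2, LXR beta, had 162 and 182 TPM in young WT, 126 and 143 in young KO, 171 and 133 in old WT and 114 and 92.8 in old KO libraries. Both KO libraries lay below both WT libraries at each age, and old WT mouse 2 lay within the range of the young KO pair. Nr1h2 had a genotype value of -0.28 (SE 0.12, edgeR adjusted p = 0.134) and an age value of -0.32 (SE 0.12, adjusted p = 0.0737). Nr1h3, which encodes LXR alpha, was at 1.46 to 3.66 TPM. Among the fatty acid receptors Ppard lay at 0.902 to 2.20 TPM and Ppara at 0.0849 to 1.61 TPM, and neither was called by edgeR or DESeq2 for genotype or age over all libraries.

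Pparg, the receptor of fat cells and macrophages, reads 8.03 and 3.90 TPM in the old KO libraries and 0.530 to 1.76 TPM in the other 6. Much of this is 1 short model: Pparg-203, a retained intron of 213 bases, held 53.0% of the gene's TPM, with 7.10 and 2.33 TPM in the old KO libraries. On counts Pparg had a genotype value of -0.42 (SE 0.39, edgeR adjusted p = 0.502) and an age value of 0.17 (SE 0.38, adjusted p = 0.751).

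Of the hormone and vitamin receptors that pair with retinoid X receptors, Thra, thyroid hormone receptor alpha, had 16.9 and 24.2 TPM in young WT, 14.7 and 20.3 in young KO, 15.7 and 16.1 in old WT and 14.7 and 10.7 in old KO libraries. Its groups overlap, and its genotype value was -0.15 (SE 0.19, edgeR adjusted p = 0.622). Vdr, the vitamin D receptor, had 13.1 and 8.78 TPM in young WT, 6.83 and 8.41 in young KO, 9.96 and 9.02 in old WT and 6.04 and 5.82 in old KO libraries. All 4 KO libraries of Vdr lay below all 4 WT libraries, with a genotype value of -0.47 (SE 0.17, adjusted p = 0.0996) that moved to -0.06 with the length offset. Thrb was at 0.604 to 2.86 TPM and was not called by edgeR, while DESeq2 called it lower in KO (adjusted p = 0.0341).

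The glucocorticoid receptor gene Nr3c1 (ENSMUSG00000024431, chr18:39410545-39519421) was the highest of the steroid receptors, at 42.4 and 39.7 TPM in young WT, 39.6 and 37.3 in young KO, 35.1 and 39.0 in old WT and 23.0 and 30.2 in old KO libraries. The 2 old KO libraries are the low ones, and the old WT values overlap the young. Nr3c1 fell with age by 0.52 (SE 0.14, edgeR adjusted p = 0.0359), but by 0.15 (adjusted p = 0.21) with the length offset. Esr1 (ENSMUSG00000019768, chr10:4611593-5005614), estrogen receptor alpha, had 17.4 and 9.33 TPM in young WT, 7.90 and 9.90 in young KO, 14.9 and 10.04 in old WT and 6.13 and 7.37 in old KO libraries. One young WT library lies within the young KO range. It fell in KO by 0.69 (SE 0.19, adjusted p = 0.0456), with -0.46 and -0.97 in the 2 batches, and by 0.27 (adjusted p = 0.141) with the length offset.

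Pgr, the progesterone receptor gene (ENSMUSG00000031870, chr9:8899833-8968611), had the largest rise with age among the called receptor genes. It had 0.531 and 0.442 TPM in young WT, 0.210 and 0.225 in young KO, 4.20 and 1.49 in old WT and 1.94 and 0.584 in old KO libraries, so that all 4 old libraries lay above all 4 young ones. The old mice of the first batch, at 4.20 and 1.94 TPM, are the littermates with Xist above 3 TPM. The log2 fold change was 2.24 (SE 0.36, edgeR adjusted p = 0.0149), with 2.97 in the first batch and 1.49 in the second, and 1.49 (adjusted p = 0.403) without those littermates. Its level is low, and without young KO mouse 2 the adjusted p was 0.0967.

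Nr3c2 (ENSMUSG00000031618, chr8:76899442-77245012), the mineralocorticoid receptor gene, gave different answers per unit. Its TPM was 1.23 and 0.881 in young WT, 1.10 and 0.424 in young KO, 3.88 and 1.99 in old WT and 2.35 and 2.28 in old KO libraries, and all 4 old libraries lay above the 4 young ones. In counts it fell in KO by 1.08 (SE 0.31, edgeR adjusted p = 0.0481) with an age value of 0.23 (SE 0.31, adjusted p = 0.584). Transcripts under 700 bases held 66.9% of its TPM, and with an offset for each library's effective length the genotype value was -0.26 (adjusted p = 0.672). Esr2, estrogen receptor beta, lay between 0.0103 and 0.525 TPM.

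The clock-linked receptors act as opposed pairs: the ROR proteins activate and the Rev-erb proteins, encoded by Nr1d1 and Nr1d2, repress through shared DNA sites in the circadian loop. Rora (ENSMUSG00000032238, chr9:68653786-69388246) had 11.7 and 9.85 TPM in young WT, 7.31 and 6.86 in young KO, 10.2 and 15.3 in old WT and 4.39 and 5.29 in old KO libraries. All 4 KO libraries lay below all 4 WT libraries. Rora fell in KO by 0.83 (SE 0.20, edgeR adjusted p = 0.0317), with -0.61 and -1.12 in the 2 batches and -0.51 (adjusted p = 0.0735) with the length offset, and its age value was -0.10 (SE 0.20, adjusted p = 0.725). Rora-202, a transcript of 2591 bases with an internal start, held 87.2% of its TPM.

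Nr1d2, Rev-erb beta (ENSMUSG00000021775, chr14:18204054-18239127), had 35.7 and 14.0 TPM in young WT, 14.9 and 12.6 in young KO, 12.9 and 19.2 in old WT and 6.36 and 8.93 in old KO libraries. Young WT mouse 1 is the high one, the old KO pair is the lowest, and the other groups overlap. It fell in KO by 0.77 (SE 0.19, edgeR adjusted p = 0.0333) and with age by 0.75 (SE 0.19, adjusted p = 0.0317). The length offset left -0.35 (adjusted p = 0.0906) and -0.28 (adjusted p = 0.132). Its partner Nr1d1, Rev-erb alpha, stood at 5.98 to 9.12 TPM with a genotype value of -0.10 (SE 0.19, adjusted p = 0.762). The 2 Rev-erb genes were not tested against each other.

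Rorb (ENSMUSG00000036192, chr19:18930605-19111196), a receptor of retina and brain, had 0.0639 and 0.426 TPM in young WT, 0.357 and 0.417 in young KO, 0.810 and 0.396 in old WT and 1.39 and 1.01 in old KO libraries. Its old WT and young ranges overlap, and only the old KO mean passes 1 TPM. Rorb rose with age by 1.76 (SE 0.36, edgeR adjusted p = 0.0222), with 1.66 and 2.05 in the 2 batches and 2.01 (adjusted p = 0.0664) with the length offset.

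Nr0b2, which encodes SHP, a receptor without a DNA-binding domain that represses other receptors including HNF4 alpha and LXR, was the only receptor gene that edgeR called higher in KO. Its levels (ENSMUSG00000037583, chr4:133553376-133556536) were 15.7 and 20.03 TPM in young WT, 22.8 and 26.3 in young KO, 18.7 and 15.6 in old WT and 31.8 and 21.95 in old KO libraries. All 4 KO libraries lay above all 4 WT libraries, and old KO mouse 1 is the highest. The log2 fold change was 0.69 (SE 0.19, edgeR adjusted p = 0.0412), with 0.77 and 0.53 in the 2 batches and 0.53 (adjusted p = 0.0507) with the length offset. Its age value was 0.00 (SE 0.19, adjusted p = 0.994). It has 1 annotated transcript, of 1132 bases, and shares no exon base with another gene.

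Of the orphan receptors of the COUP-TF and testicular receptor groups, known as repressors at shared half-sites, Nr2f6, Nr2c2 and Nr2c1 were expressed, while Nr2f1 and Nr2f2 stayed under 1 TPM. Nr2f6 had 33.9 and 47.7 TPM in young WT, 23.2 and 31.6 in young KO, 36.8 and 26.8 in old WT and 21.3 and 18.7 in old KO libraries. The KO libraries were the lower ones at each age, with overlap between ages, and the genotype value was -0.45 (SE 0.14, edgeR adjusted p = 0.0611). Reads of its main transcript are uncertain, since 41.2% of its bases lie opposite Ocel1. Nr2c2, known as TR4, had 32.9 and 22.8 TPM in young WT, 26.9 and 24.5 in young KO, 26.6 and 24.6 in old WT and 19.2 and 21.6 in old KO libraries. Its young groups overlap and its old KO pair is the lowest, with a genotype value of -0.19 (SE 0.16, adjusted p = 0.474).

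Nr2c1, known as TR2 and with Nr2c2 a repressor of embryonic globin genes, had 23.6 and 16.7 TPM in young WT, 15.5 and 14.0 in young KO, 16.3 and 17.8 in old WT and 7.99 and 11.8 in old KO libraries. All 4 KO libraries lay below all 4 WT libraries, and the genotype value was -0.51 (SE 0.15, edgeR adjusted p = 0.056). Esrra, a regulator of mitochondrial genes, had 11.5 and 11.4 TPM in young WT, 12.1 and 10.1 in young KO, 11.3 and 9.95 in old WT and 8.35 and 7.74 in old KO libraries. The old KO pair is low and the other 3 groups overlap, with a genotype value of -0.08 (SE 0.17, adjusted p = 0.795).

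The immediate-early receptor genes Nr4a1 and Nr4a2 lay at 2.45 to 7.64 and 2.64 to 6.73 TPM and were not called by edgeR; DESeq2 called Nr4a1 lower in KO (adjusted p = 0.0452). Their genotype values were -0.65 (SE 0.27, edgeR adjusted p = 0.138) and -0.01 (SE 0.20, adjusted p = 0.981). Nr6a1, the germ cell factor, was at 0.205 to 2.72 TPM, and DESeq2 but not edgeR called it higher with age. The 10 genes under 1 TPM in every group mean were Nr2e3, Esr2, Nr1i3, Rxrg, Nr1h4, Nr2f2, Nr2f1, Nr4a3, Nr5a2 and Hnf4g. Their highest group mean was 0.579 TPM (Nr2e3), their highest estimated count in any library was 75.1 (Esr2), and edgeR called none in any of the 7 comparisons. With age, however, DESeq2 called 4 of them higher (Esr2, Nr1h4, Nr4a3 and Nr5a2), and the same 4 had an unadjusted edgeR p under 0.05, with edgeR adjusted p values of 0.0559 to 0.0822. Of all 25543 genes DESeq2 called 2761 higher with age, 1745 of them among the 17558 at 1 TPM or more. By unadjusted edgeR p under 0.05, 4553 genes rose with age, 2497 of them at 1 TPM or more.

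Counted over libraries, 5 of the 30 receptor genes at 1 TPM or more (Nr2c1, Rora, Vdr, Rarg and Rarb) had all 4 KO libraries below all 4 WT libraries in TPM, and 9.85% of all 20002 genes at that level did. One, Nr0b2, had the opposite order, as did 2.01% of all genes. No receptor gene had all old libraries below all young ones (1.71% of all genes), and 3 (Nr3c2, Pgr and Ppara) had all young libraries below all old ones (3.47% of all genes). Pgr and Ppara reach 1 TPM only in old groups, so they entered this count through the groups where they are high. Transcripts under 700 bases held 63.1% of the TPM of Ppara. Its estimated counts overlapped between ages, with 11.1 in old WT mouse 2 and 11.4 to 21.3 in the young libraries.

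**Figure D4:**
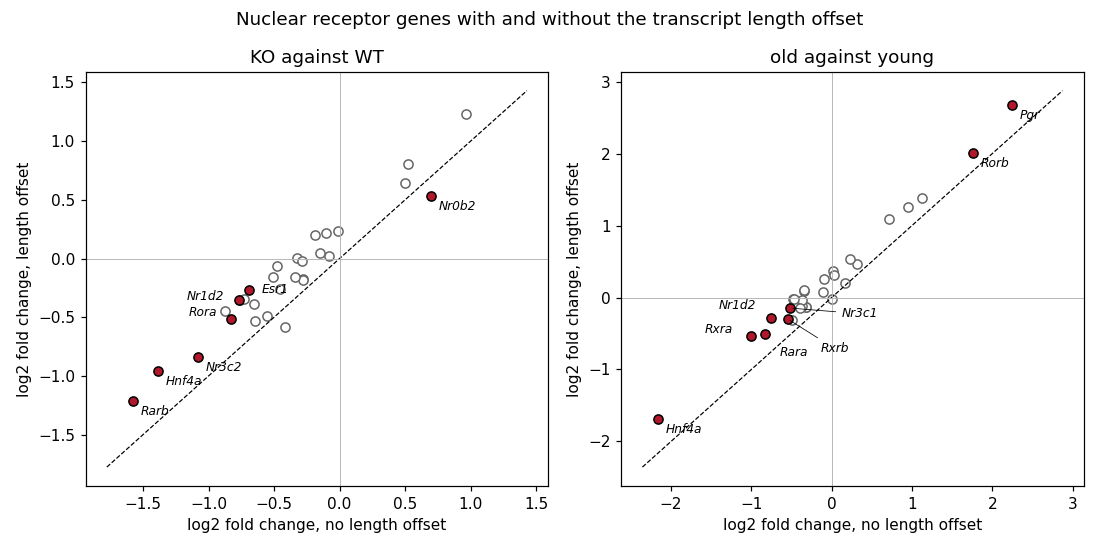
Log2 fold change of the 30 receptor genes at 1 TPM or more without (horizontal) and with (vertical) the transcript length offset, for each of the 2 pooled comparisons; filled points were called without it and the dashed line is equality. Most points lie above the line, and Hnf4a stays lowest for age at -1.69, while Rarb is lowest for genotype at -1.22.

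Receptor promoters were read for the half-site AGGTCA that most of the family binds. On either strand it stood in 11 of the 54 member promoters (20.4%), from 10 of the 37 genes, and in 16.3% of all 32851 RefSeq promoters of this length. The gene Nr1d2 has it at bases -77 to -72. The E-box CACGTG, the clock factor site, stood in 6 of the 54 (11.1%) and in 7.15% of all, and the cyclic AMP element TGACGTCA in 1 (1.85%) and in 1.79% of all. These shares are descriptions of the windows searched.

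Cofactors and targets of the receptors were read from lists of companion genes, each counted with the same test and set against the shares of all genes called above. Of 21 coactivator genes, 1 rose and 3 fell in KO, among them the targeted Asxl2 (log2 fold change -2.10, SE 0.17, edgeR adjusted p = 0.000408). Ncoa1, which encodes the steroid receptor coactivator SRC-1, went from 10.01 ± 5.33 TPM in WT to 4.73 ± 1.46 in KO (SD, n = 4 and 4; -0.88, SE 0.20, edgeR adjusted p = 0.0251). Ncoa7 fell by 0.62 (SE 0.14, adjusted p = 0.026). The one that rose, Asxl3, lay at 0.145 ± 0.134 TPM in WT and 0.426 ± 0.228 in KO (SD, n = 4 and 4), a level too low for the naming rule and named after its value was seen. Of 13 corepressor genes 2 fell: Nrip1, which encodes RIP140 (-0.59, SE 0.16, adjusted p = 0.0441, and 0.0728 with the litter as a block), and Insig1 (-0.59, SE 0.17, adjusted p = 0.0472). Insig1 is not itself a receptor corepressor: it is a membrane protein of the endoplasmic reticulum that retains the sterol-regulated factors SCAP and SREBP. The list medians were -0.34 and -0.27 for genotype, but 0.01 and 0.07 with the length offset, with which 2 coactivator genes fell and none rose, and 1 corepressor gene rose and none fell.

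With age, 6 coactivator genes fell and none rose. The 4 with the smallest p were Carm1 (-0.56, SE 0.13, edgeR adjusted p = 0.027), an arginine methyltransferase, Pprc1 (-0.90, SE 0.21, adjusted p = 0.0279), Ncoa1 (-0.77, SE 0.19, adjusted p = 0.0322) and Ncoa3 (-0.72, SE 0.19, adjusted p = 0.037). Of the 13 corepressor genes 4 fell and none rose, among them Bcor (-0.84, SE 0.21, adjusted p = 0.0312), Sin3a (-0.62, SE 0.16, adjusted p = 0.035) and Tbl1x (-0.45, SE 0.13, adjusted p = 0.0424). With the length offset neither list had a called gene for age. Young WT mouse 1 stood above the other young libraries in these genes: Pprc1 had 78.3 TPM there against 26.8 to 30.5, Ncoa1 18.0 against 5.95 to 7.17, and Bcor 18.7 against 7.32 to 9.94. Old WT mice had 7.61 and 6.26 TPM of Bcor. Without young WT mouse 1 none of these 7 genes was called, with adjusted p values of 0.0873 (Carm1) to 0.122 (Ncoa3), and fitted age values of -0.62 for Pprc1, -0.58 for Ncoa1 and -0.63 for Bcor.

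Target genes of the receptors were counted likewise. Of 13 LXR targets, 2 fell in KO and none rose: Mylip, a ubiquitin ligase of the LDL receptor (21.7 ± 3.87 TPM in WT, 13.5 ± 2.12 in KO, SD, n = 4 and 4; edgeR adjusted p = 0.033, and 0.0591 with the litter as a block), and Srebf1, the master gene of fatty acid synthesis (-0.65, SE 0.18, adjusted p = 0.0411, and 0.0694 with the block). With the length offset both calls were lost, and 1 LXR target rose and none fell. With age Srebf1 (-0.83, SE 0.18, adjusted p = 0.024) and Scd2 (-0.65, SE 0.15, adjusted p = 0.0271) fell and Apoe, the lipid carrier, rose (0.83, SE 0.21, adjusted p = 0.031). Srebf1 had 136 TPM in young WT mouse 1, 47.7 to 53.3 in the other young libraries and 53.7 and 55.1 in the old WT libraries. Scd2 likewise had 135 TPM there, 54.1 to 61.6 in the other young and 52.5 and 61.9 in the old WT libraries. Without that mouse the adjusted p values were 0.0778 and 0.0864. None of 20 PPAR and fatty acid oxidation genes was called for genotype by edgeR (4 at an unadjusted p under 0.05), and DESeq2 called 2. The most abundant of them, Ucp2 and Ech1, had genotype values of 0.31 (SE 0.12, adjusted p = 0.109) and 0.09 (SE 0.14, adjusted p = 0.688). With age Cpt1a, the entry enzyme of mitochondrial fatty acid oxidation, fell by 0.72 (SE 0.17, adjusted p = 0.0272) and Cat, catalase, by 0.51 (SE 0.12, adjusted p = 0.0292).

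Of 14 retinoid genes tested, none rose and 2 fell in KO, Rarb as above and Cd38 (-1.33, SE 0.23, edgeR adjusted p = 0.0145), an NAD-consuming surface enzyme induced by retinoic acid. With age 3 rose, among them Aldh1a1, an enzyme that makes retinoic acid, from 11.2 ± 4.59 TPM in young to 61.3 ± 8.60 in old libraries (SD, n = 4 and 4; 2.53, SE 0.24, adjusted p = 0.00102) and Cd38 (1.51, SE 0.24, adjusted p = 0.0148). With the length offset both of the KO calls and the calls for Aldh1a1 and Cd38 with age were kept.

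Target and chaperone genes of the glucocorticoid receptor split: Tsc22d3, the target known as GILZ, fell in KO from 377 ± 121 to 166 ± 70.6 TPM (SD, n = 4 and 4; -1.07, SE 0.18, edgeR adjusted p = 0.0125), and Dusp1 fell by 0.85 (SE 0.22, adjusted p = 0.0352, and 0.0631 with the litter as a block). The receptor's chaperones Hsp90aa1 (0.65, SE 0.14, adjusted p = 0.0247) and Ptges3 (0.52, SE 0.12, adjusted p = 0.0299) rose. These are 2 higher and 2 lower of 15. With age Zbtb16, which encodes PLZF, rose by 1.51 (SE 0.22, adjusted p = 0.0114), and Fkbp5 (-0.78, SE 0.15, adjusted p = 0.0213) fell together with Nr3c1.

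Among 15 genes of the clock loop, Bhlhe41 rose (0.88, SE 0.20, edgeR adjusted p = 0.0263) and Cry2 fell (-0.66, SE 0.17, adjusted p = 0.0363, and 0.0657 with the litter as a block) in KO. With age Bhlhe41 rose by 1.09 (SE 0.20, adjusted p = 0.0204), and Tef (-0.77, SE 0.19, adjusted p = 0.0298), Hlf (-0.68, SE 0.18, adjusted p = 0.0347) and Cry2 (-0.62, SE 0.17, adjusted p = 0.0385) fell. Of 17 immediate-early genes tested, Btg2 (-0.99, SE 0.18, adjusted p = 0.015), Klf6 (-0.64, SE 0.16, adjusted p = 0.0325, and 0.0558 with the block) and Dusp1 fell in KO and none rose. With age Ier3 (0.72, SE 0.15, adjusted p = 0.0227) and Fos (2.65, SE 0.72, adjusted p = 0.0373) rose and Btg2 fell (-0.62, SE 0.18, adjusted p = 0.0411). Fos had 39.9 and 39.5 TPM in the old WT libraries, 3.65 and 5.45 in the old KO and 1.49 to 2.92 in the young libraries, so the high values are those of old WT mice. Its age value was 4.52 in WT mice (SE 0.42, edgeR adjusted p = 0.00285) and 0.78 in KO mice (SE 0.37, adjusted p = 0.220), and the test of that difference gave an adjusted p of 0.222. In old mice 4 of the 17 genes fell in KO and none rose, Fos among them (-2.92, SE 0.39, adjusted p = 0.0141).

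Of 8 further nuclear receptors outside the set, 6 could be tested and none was called for genotype by edgeR (0 at an unadjusted p under 0.05) or DESeq2. With age 2 of the 6 rose and none fell, among them Esrrg, an estrogen-related receptor of oxidative tissues, by 1.85 (SE 0.42, edgeR adjusted p = 0.0262). Over the companion lists the medians turned sign with the length offset for the coactivator, corepressor, PPAR, glucocorticoid and clock lists in KO, and for the LXR, PPAR, glucocorticoid and clock lists with age, while each gene named in them kept its direction, except Ech1 at -0.015. Of the 18 companion genes called for genotype, 11 were called with the litter as a block (Nrip1, Srebf1, Mylip, Dusp1, Cry2, Klf6 and Asxl3 were not), 9 with the length offset and 2 (Asxl2 and Tsc22d3) without the litter with Xist above 3 TPM. Of the 30 called for age, 5 were called with the length offset, among them Cd38, Aldh1a1, Zbtb16 and Ier3, and 0 without that litter. With 1 mouse left out, 2 (without old KO mouse 2 or old WT mouse 2) to 18 (without young KO mouse 2) of the 18 genotype calls were made. Of the 30 age calls, 2 were made without young KO mouse 2, 3 (Aldh1a1, Cd38 and Zbtb16) without young WT mouse 1, 5 without either old KO mouse, 7 without old WT mouse 1, and 22 to 29 without any of the other 3.

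**Figure D5:**
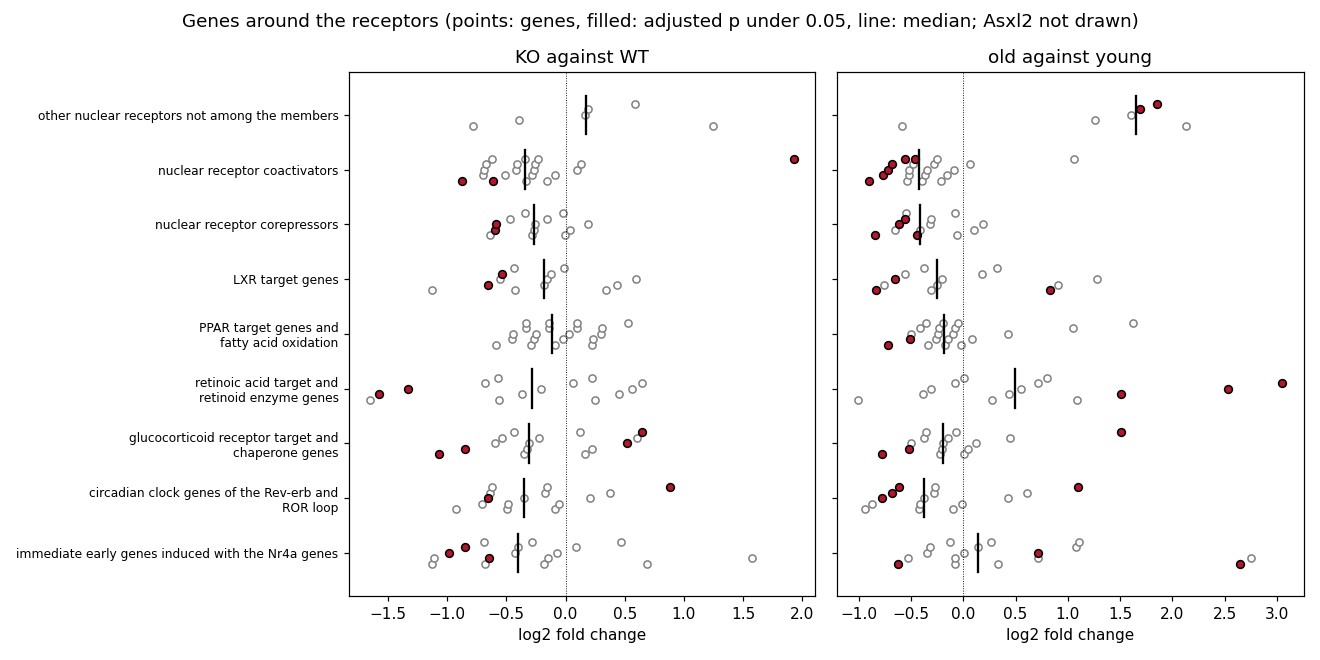
Log2 fold change of the companion genes, by list, for KO against WT and old against young over all 8 libraries, with 1 point per gene, filled where the adjusted p is under 0.05, and a line at the list median; Asxl2 is not drawn. The 9 medians lie between -0.40 and 0.18 for genotype, and the retinoid list and the other nuclear receptors have medians of 0.49 and 1.65 for age.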

How the data were processed

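Transcripts were quantified by the authors with kallisto against mm10, per the submitters' processing notes, which also name DESeq2. The tool versions and the transcriptome release are not given in the sources used here. Each deposited table, per the file headers, holds estimated counts, TPM and a length and effective length in bases for 115088 transcripts in 1 mouse. RNA was amplified with a SMART-Seq v4 kit, per the labels, so strand is not marked.

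Transcripts were matched to GENCODE vM21 (114200 of 115088, in 47311 genes). The unmatched ones, 0.259 to 0.470% of the counts, were left out. Estimated counts and TPM were summed per gene, and counts were rounded. With edgeR 4.0.16 in R 4.3.3, genes were filtered (filterByExpr, minimum count 10, minimum total 15), scaled by TMM and tested by quasi-likelihood F tests with Benjamini-Hochberg adjustment over 25543 genes and a threshold of 0.05. Genotype, age and batch entered the pooled model, with 4 residual degrees of freedom, and the 4 groups and batch the other, with 3. SE is the log2 fold change divided by the square root of F. Pooled values of KO and WT, or of young and old, share the same 8 libraries. The scripts were tested on simulated data.

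Groups hold 2 mice each, and p-values measure the spread between these mice. The labels place each KO mouse with a WT littermate, and this pairs the samples. The litter block is not estimable for age. The old mice are from litters 1 and 2 and the young mice from litters 3 and 4, so age differs only between litters. The age tests take littermates as independent, so their p-values do not separate the spread between litters from that between littermates. Alternatives were DESeq2 1.42.0 and limma 3.58.1 on log2(TPM + 1), no filter, 2 length offsets, no batch term, the litter block, single batches, and each mouse or litter 1 left out. Litter 1 is the old litter of the first batch.

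The members and the 18 lists (9 of companion genes, 9 of cell type markers) were chosen with earlier results of these data known. Receptor genes are given in full when called in any of 7 comparisons at 1 TPM or more in a group mean, or when at 10 TPM or more; the others by range and count. Companion genes are named up to 4 a list at 2 TPM or more, by p, and otherwise by level; a few of them are not reported here. Promoters are RefSeq's, on GRCm38.p6, matched by symbol for 37 of 40 genes.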

Additional observations from a re-analysis of the deposited data

Results flagged for a closer look

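In 4 of 80 groups of 4 libraries tested over the receptor genes given in full, 1 library stood far from the other 3, and chance flags about 1 in 20 groups. Thra stood at 24.2 TPM in young WT mouse 2, against 15.7 to 16.9 TPM in the other WT libraries. Nr1d2 stood at 35.7 TPM in young WT mouse 1, against 12.6 to 14.9 TPM in the other young libraries. Esrra was 9.95 TPM in old WT mouse 2, below the 11.3 to 11.5 TPM of the other WT libraries. Rarb was 0.688 TPM in young KO mouse 2, below the 1.24 to 1.34 TPM of the other KO libraries.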

How the results depend on the processing

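The share of all genes called differed between alternatives too. For KO against WT, DESeq2 called 13.1% of all genes in old mice and 1.52% in young mice. For old against young it called 1.54% in WT mice and 13.9% in KO mice. In old mice limma called 6.08% for KO against WT. Shares are not given for the other alternatives of these comparisons, so their counts are not results about the receptors alone. The count of receptor genes called was the least stable value. For KO against WT it was 7, and it was 16 with DESeq2, 2 with the length offset, 1 without the batch term, 2 with the litter as a replicate block, 1 without litter 1, 1 within the first batch, 18 within the second batch, and 0 to 13 with 1 mouse left out. For old against young it was 8, and it was 17 with DESeq2, 14 without the filter, 1 with limma, 2 with the length offset, 2 without the batch term, 1 without litter 1, 5 within the second batch, and 1 to 10 with 1 mouse left out. In old mice the genotype count of 1 became 9 with DESeq2, 6 without the filter, 4 with limma, 0 without the batch term, with the replicate block or without litter 1, and 0 to 6 with 1 mouse left out. In young mice the 0 became 1 with DESeq2 or without the filter, and 0 to 2 with 1 mouse left out. The age count of 1 in WT mice became 2 with DESeq2, 3 without the filter, 0 with limma, the effective length offset, no batch term or without litter 1, and 0 to 2 with 1 mouse left out. In KO mice it became 9 with DESeq2, 9 without the filter, 0 with limma or without litter 1, and 0 to 8 with 1 mouse left out. The interaction count was 0 under each alternative. Of 746 values of single genes under the alternatives, 539 kept their direction and side of the threshold, 149 lost and 35 gained the call, and 23 turned sign, all of them in genes not called for that comparison. For genotype the length offset gave 0.0062 for Nr3c1, 0.20 for Nr2c2, 0.051 for Thra and 0.025 for Esrra, and the first batch gave 0.0091 for Nr2c2 and 0.045 for Thra. For age the length offset gave 0.085 for Nr2c2, 0.25 for Rora, 0.11 for Vdr and -0.015 for Nr0b2. Nr0b2 was also -0.038 without the filter, -0.0002288 without the batch term, -0.030 in the first batch and -0.14 to 0.090 with 1 mouse left out. Rora was 0.068 without litter 1, 0.044 in the second batch and -0.30 to 0.032 with 1 mouse left out, and Nr3c2 was -0.021 without litter 1 and -0.0088 in the second batch. The cause of these shifts was not tested. With 2 mice a group and 3 or 4 residual degrees of freedom, a receptor gene that was not called is not shown to be equal between groups.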
